A study of Homo sapiens with 12 samples.

Results

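The genes described here are 10 Eph receptors and ephrins, chosen by symbol: the A-class receptors EPHA2, EPHA3, EPHA4 and EPHA7, the B-class receptors EPHB2, EPHB3 and EPHB4, and the ephrins EFNA1, EFNB1 and EFNB2. All 10 were found among the 58721 genes of the count table, which holds 22 genes of this family. They were measured by RNA-seq in EW8 and TC71, established Ewing sarcoma cell lines. Every library, vehicle libraries included, came from cells infected with a pair of lentiviral vectors, one for the Tet-On transactivator under the EF1 alpha promoter and one for c-Jun and c-Fos behind a doxycycline-responsive promoter, and selected with geneticin and puromycin. The genotype label of the vehicle cells reads WT, although they carried the same vectors. The 4 groups of 3 libraries were EW8 or TC71 cells given either DMSO (vehicle) or 2000 ng/ml doxycycline for 72 h. c-Jun and c-Fos form the transcription factor AP-1, and the comparison asks what their expression does to the transcriptome. No doxycycline-treated cells without the c-Jun and c-Fos vector were analysed here, so the effects of the drug and of the induced proteins cannot be told apart.

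Eph receptors are the largest family of receptor tyrosine kinases, and ephrins are their ligands, which are themselves held at the surface of the neighbouring cell. A-class ephrins are attached to the membrane by a lipid anchor and bind mainly A-class receptors, whereas B-class ephrins span the membrane and bind mainly B-class receptors, with EPHA4 binding both. Contact between cells that carry them signals into both cells and guides cell repulsion, adhesion and the drawing of tissue boundaries, and mesenchymal and neural tissues and their tumours use many members of the family.

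Total counts per library ran from 42860665 to 60853649. JUN was between 18.04 and 25.4 CPM (read counts scaled to a common library size) in the vehicle libraries. With doxycycline it was between 422 and 504 CPM in EW8 and between 705 and 814 CPM in TC71. FOS was between 999 and 1139 CPM with doxycycline in EW8 and between 1450 and 1686 CPM in TC71, against 11.2 to 37.6 CPM with vehicle. All 8 markers of Ewing sarcoma cells were detected in every library, with summed levels from 2410 to 2918 CPM. One of them, LIPI, was called lower in EW8 (47.7 to 18.1 CPM). At an adjusted p under 0.05 and any fold, 1 marker was higher and 5 lower in EW8, and 2 higher and 4 lower in TC71. Over all genes tested, 43.9% passed that rule in either direction in EW8 and 45.6% in TC71. Of 10 markers of other cell types, edgeR called 3 as changed in EW8 (2 of them higher in treated cells) and 7 in TC71 (5 of them higher). The summed levels of these 10 markers were 149 to 158 CPM with vehicle and 177 to 194 CPM with doxycycline in EW8. In TC71 they were 205 to 210 CPM and 243 to 257 CPM. The endothelial marker PECAM1 went from a mean of 7.07 to 37.5 CPM in EW8 and from 0 in every vehicle library to 3.66 CPM in TC71, and the epithelial marker EPCAM from 0.707 to 11.9 CPM in TC71. Of the fibroblast markers, COL1A1 went from 26.1 to 92.8 CPM and DCN from 7.93 to 2.39 CPM in TC71. PDGFRA went from 0.837 to 2.48 CPM in EW8, and LUM fell in both lines. COL3A1, the fibroblast marker at the highest level, was not called in either line. Its mean was lower with doxycycline in both, at 47.7 and 34.8 CPM in EW8 and 165 and 135 CPM in TC71. The small remaining calls, COL1A2 and CDH5 in TC71, had group means at or under 0.251 CPM. The leukocyte marker PTPRC was at 65.9 and 74.9 CPM in EW8 and at or under 6 counts in all TC71 libraries. The part of these markers in the results on the family was not tested. TC71 vehicle replicate 1 stood apart from its group, with a median absolute log2 difference per gene of 0.241 and 0.256 from the other two, against 0.131 to 0.184 for the other pairs of replicates.

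A gene was called when its Benjamini-Hochberg adjusted p in edgeR's quasi-likelihood test was under 0.05 and its log2 fold change was over 1 in either direction. In EW8, doxycycline raised EFNA1, EPHA2 and EPHB3 and lowered EPHA7, so 3 of the 9 members tested were called higher and 1 lower. Of all 21013 genes tested, 11.4% were called higher and 3.38% lower in this comparison. In TC71, EPHB2 alone was called among the members, as 1 of 9 higher and 0 lower. The background in TC71 was 12.3% called higher and 3.67% called lower. At an unadjusted p under 0.05 and any fold, 4 members were lower in TC71, as were 23.4% of all genes, and DESeq2 likewise called none of them lower. At an adjusted p under 0.05 and any fold, 3 members were higher and 5 lower in EW8, and 43.9% of all genes passed in either direction. By the same rule 3 were higher and 3 lower in TC71, where 45.6% of all genes passed. The member with no test was EFNB2, whose counts were too low in every group. In both lines EFNB1, EPHB4 and EPHA4 were lower with doxycycline at an adjusted p under 0.05, by less than the fold limit. EPHA2 was higher in both lines at an adjusted p under 0.05, and past the fold limit in EW8 alone. The members' median log2 fold change was -0.45 in EW8 and 0.08 in TC71, against -0.03 and 0 over all genes tested. In these bulk samples a smaller number of cells that express a gene and less of its RNA per cell cannot be told apart. The labels do not say that replicates were separate cultures, so p-values measure the spread between these libraries, which may be technical.

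**Figure D1:**
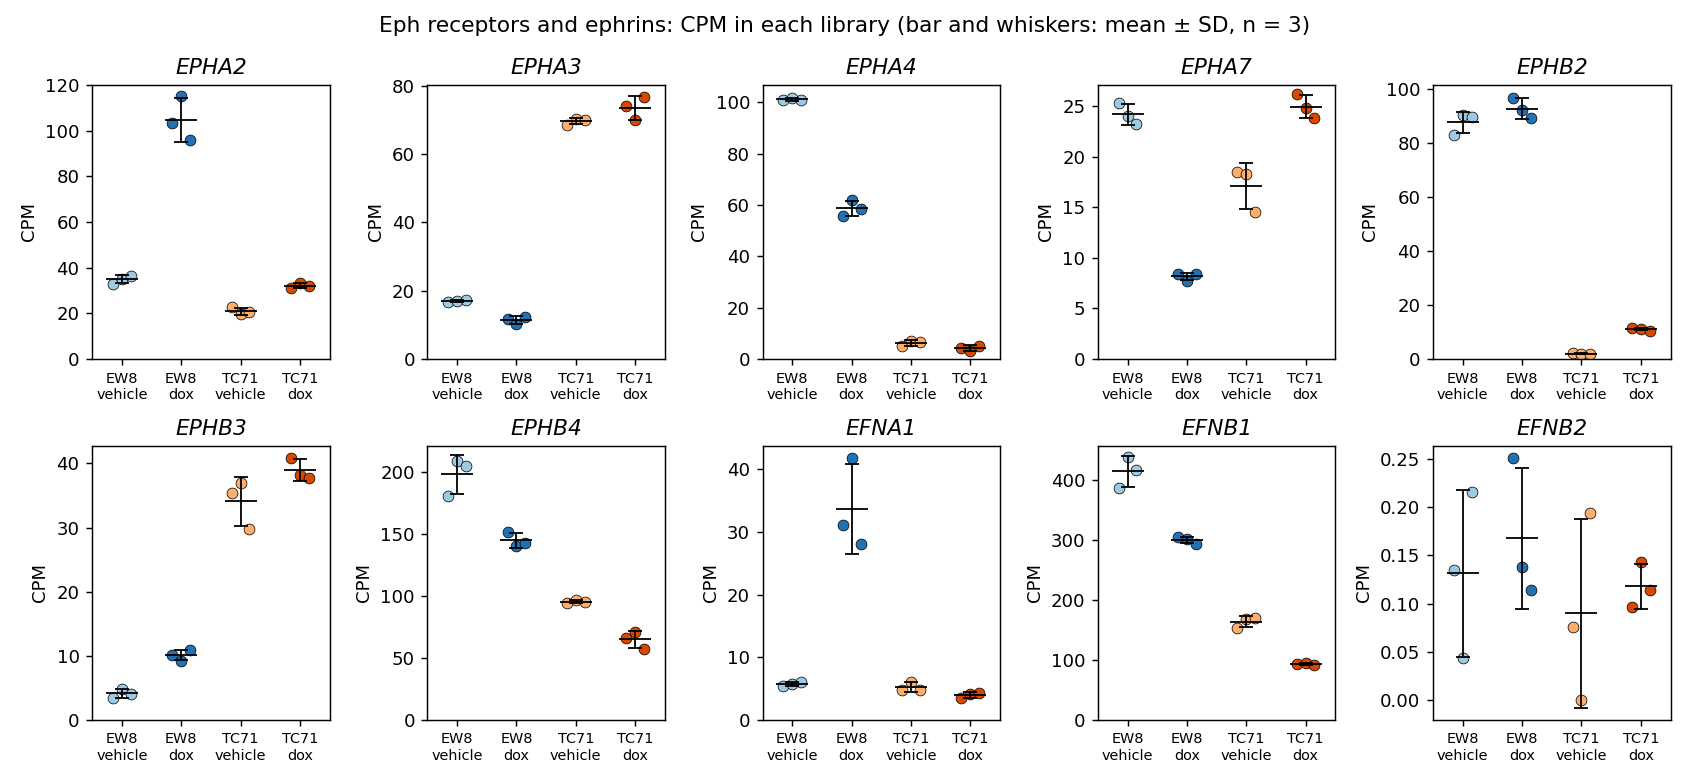
Level of each member in CPM (vertical axis, linear, separate scale in each panel) in the 4 groups of 3 libraries. Points are libraries, and the bar with whiskers is the mean ± SD. EPHA2 in the EW8 doxycycline libraries lies between 96.1 and 115 CPM, above every other library, and EPHB2 is below 12 CPM in all TC71 libraries.

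Among the 4 A-class receptors listed, EPHA2 (ENSG00000142627.12, hg38 chromosome 1, 16124337 to 16156087, minus strand) was the one called higher in EW8. This receptor binds ephrin-A1 and is found in many epithelia and solid tumours. In EW8 it was at 33.1, 35.2 and 36.5 CPM with vehicle and at 103, 115 and 96.1 CPM with doxycycline. The groups did not overlap, and the lowest treated library was above the highest vehicle library by more than the spread within either group. EPHA2 rose 3.00-fold (log2 1.59, SE 0.08, adjusted p 1.15e-11). In TC71 the receptor was at 22.7, 19.8 and 20.5 CPM with vehicle and at 31.0, 33.5 and 32.2 CPM with doxycycline. These groups did not overlap either, but the difference was 1.53-fold (log2 0.62, SE 0.08, adjusted p 4.82e-06) and under the fold limit.

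Promoter windows show how the members differ in sequence near the start of transcription, and c-Jun and c-Fos are known to bind short elements of DNA. Windows of 300 bases, from 250 before to 50 after each start site, were taken from RefSeq (GRCh38.p14), and 14 of them belonged to the 10 members. The letters searched on both strands were TGANTCA, TGACGTCA and GGAAGGAA. TGANTCA is the classical AP-1 element widened to allow any base in the middle. TGACGTCA is a related element bound by bZIP proteins, and GGAAGGAA a repeat of the core that ETS factors such as EWS-FLI1 bind. Among all 35116 windows, 7.71% held TGANTCA, 1.85% held TGACGTCA and 3.67% held GGAAGGAA. Of the members' windows, 0 held TGANTCA, 1 held TGACGTCA and 0 held GGAAGGAA. The single match was in EPHA2, at chr1:16156113-16156120, 51 bases before the RefSeq start. The 3 stretches printed are those of EPHA2 and of EPHB3, which rose in EW8, and of EPHB2, which rose in TC71. EFNA1, which also rose in EW8, is not printed, and its window held none of the letters searched. Each runs from 150 to 21 bases before the RefSeq start, written 5′ to 3′ on the strand of the gene, with the matching letters in capitals. EPHA2 is taken from chr1:16156090-16156219 (minus strand), EPHB2 from chr1:22710688-22710817 (plus strand) and EPHB3 from chr3:184561635-184561764 (plus strand).
EPHA2: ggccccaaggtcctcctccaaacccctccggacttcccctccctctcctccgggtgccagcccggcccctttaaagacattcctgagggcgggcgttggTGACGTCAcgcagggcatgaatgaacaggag
EPHB2: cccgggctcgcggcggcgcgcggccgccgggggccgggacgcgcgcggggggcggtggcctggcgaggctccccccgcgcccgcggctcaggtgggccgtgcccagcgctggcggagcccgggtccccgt
EPHB3: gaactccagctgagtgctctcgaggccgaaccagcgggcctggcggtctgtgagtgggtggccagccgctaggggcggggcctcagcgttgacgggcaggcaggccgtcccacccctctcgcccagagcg
Of these 130 bases, G and C made up 64.6% in EPHA2, 88.5% in EPHB2 and 72.3% in EPHB3. A match is a description of the letters, and their absence says only that they are not in these windows.

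EPHA7 (ENSG00000135333.13, chromosome 6, 93240020 to 93419547, minus strand), an ephrin-A receptor known from the developing nervous system, was the member called lower. Its EW8 vehicle libraries were at 25.3, 24.0 and 23.2 CPM and its EW8 doxycycline libraries at 8.36, 7.75 and 8.40 CPM. The treated level was 0.338 times the vehicle level (log2 -1.57, SE 0.11, adjusted p 1.02e-09), and the groups were far apart. In TC71 the sign was opposite, with 18.5, 18.3 and 14.5 CPM under vehicle and 26.2, 24.8 and 23.8 CPM under doxycycline. All 3 treated TC71 libraries were above all 3 vehicle libraries at log2 0.54 (SE 0.10, adjusted p 0.000261), which is under the fold limit.

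EPHA4 (ENSG00000116106.11, chromosome 2, 221418027 to 221574202, minus strand), the receptor that accepts ephrins of both classes, was at 101, 102 and 101 CPM in EW8 vehicle cells. With doxycycline it was at 55.8, 61.9 and 58.3 CPM (log2 -0.79, SE 0.12, adjusted p 2.14e-05). The EW8 groups were well separated, although the difference stayed under the fold limit. In TC71 its vehicle libraries were at 4.96, 7.15 and 6.81 CPM and its doxycycline libraries at 4.41, 3.20 and 5.23 CPM. One treated TC71 library was above the lowest vehicle library, which was replicate 1, and the estimate was log2 -0.56 (SE 0.15, adjusted p 0.00418). Without TC71 vehicle replicate 1 it was -0.78 (adjusted p 8.25e-06), still under the fold limit. Of the exonic bases of EPHA4, 4.67% also belong to a gene on the opposite strand.

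EPHA3 (ENSG00000044524.10, chromosome 3, 89107524 to 89482134, plus strand) is a receptor for ephrin-A ligands that is active in mesenchymal development. It was at 16.8, 17.02 and 17.4 CPM with vehicle and at 11.7, 10.2 and 12.2 CPM with doxycycline in EW8. The estimate was log2 -0.59 (SE 0.08, adjusted p 7.45e-06), with no overlap between the groups and under the fold limit. In TC71 its libraries were at 68.6, 70.3 and 70.1 CPM with vehicle and at 74.0, 69.9 and 76.7 CPM with doxycycline. The TC71 groups overlapped and the test did not separate them (log2 0.08, SE 0.07, adjusted p 0.425).

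EPHB2 (ENSG00000133216.16, chromosome 1, 22710839 to 22921500, plus strand) had the largest response of the B-class receptors. It binds ephrin-B ligands and is known for placing cells along the intestinal crypt. In TC71 it was at 2.20, 1.98 and 1.84 CPM with vehicle, from 95 to 123 counts, and at 11.4, 11.3 and 10.5 CPM with doxycycline. EPHB2 rose 5.51-fold in TC71 (log2 2.46, SE 0.09, adjusted p 1.18e-13), and the spread within either group was small beside that distance. In EW8 the same receptor was at 83.2, 90.4 and 89.6 CPM with vehicle and at 96.8, 92.3 and 89.4 CPM with doxycycline. The EW8 groups overlapped, and the log2 fold change of 0.08 (SE 0.07, adjusted p 0.366) was within the spread of the replicates. Even after induction, TC71 cells held 0.119 times the EPHB2 of doxycycline-treated EW8 cells.

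EPHB3 (ENSG00000182580.2, chromosome 3, 184561784 to 184582409, plus strand) shares ephrin-B ligands with EPHB2. In EW8 it was at 3.38, 4.86 and 4.06 CPM with vehicle and at 10.1, 9.25 and 10.8 CPM with doxycycline. It rose 2.45-fold (log2 1.29, SE 0.13, adjusted p 1.54e-07), without overlap between the groups. In TC71 it was at 35.4, 37.0 and 29.8 CPM with vehicle and at 40.9, 38.2 and 37.7 CPM with doxycycline. The treated TC71 libraries were the higher ones by a narrow margin, and the log2 fold change of 0.19 (SE 0.11, adjusted p 0.181) did not pass the test. The response was thus called in the line that started from the lower level, and the part of the starting level in it was not tested.

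EPHB4 (ENSG00000196411.9, chromosome 7, 100802565 to 100827521, minus strand), the receptor for ephrin-B2 that marks venous endothelium in development, was at 181, 209 and 205 CPM in EW8 vehicle cells. With doxycycline its EW8 libraries were at 152, 140 and 143 CPM (log2 -0.45, SE 0.07, adjusted p 5.89e-05). In TC71 it was at 94.1, 96.7 and 95.5 CPM with vehicle and at 66.5, 71.0 and 57.2 CPM with doxycycline (log2 -0.56, SE 0.07, adjusted p 5.65e-06). In both lines every treated library was below every vehicle library, and in both the difference was under the fold limit. A share of 1.07% of its exonic bases is also exonic in SLC12A9 on the opposite strand.

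EFNA1 (ENSG00000169242.11, chromosome 1, 155127460 to 155134857, plus strand) encodes ephrin-A1, a ligand of EPHA2 first known as a product that TNF induces in endothelial cells. It had the largest log2 fold change of the members in EW8. Its EW8 libraries were at 5.41, 5.69 and 6.04 CPM with vehicle and at 31.0, 41.8 and 28.1 CPM with doxycycline. All 3 treated libraries were far above the vehicle libraries, with the second replicate the highest. EFNA1 rose 5.88-fold (log2 2.56, SE 0.16, adjusted p 2.28e-10). In TC71 the ligand was at 4.72, 6.10 and 4.70 CPM with vehicle and at 3.44, 4.18 and 4.32 CPM with doxycycline. The treated TC71 libraries were the lower ones, and the log2 fold change of -0.38 (SE 0.17, adjusted p 0.0714) did not pass the test. Without TC71 vehicle replicate 1 it was -0.52 (adjusted p 0.013), still under the fold limit. EPHA2 and EFNA1, a receptor and its ligand, were therefore both called higher in EW8, and neither was called in TC71. In TC71 EPHA2 was higher by less than the fold limit (log2 0.62, adjusted p 4.82e-06), while the EFNA1 estimate was negative.

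EFNB1 (ENSG00000090776.5, chromosome X, 68828997 to 68842147, plus strand) encodes ephrin-B1, a transmembrane ligand needed for boundaries in the developing face and skull. In EW8 it was at 387, 438 and 417 CPM with vehicle and at 304, 301 and 294 CPM with doxycycline (log2 -0.47, SE 0.06, adjusted p 1.6e-06). In TC71 it was at 153, 167 and 170 CPM with vehicle and at 93.2, 94.5 and 91.3 CPM with doxycycline (log2 -0.81, SE 0.06, adjusted p 9.2e-10). The treated libraries were below the vehicle libraries in both lines with no overlap, at a size under the fold limit. EFNB2 (ENSG00000125266.7, chromosome 13, 106489731 to 106535662, minus strand), the ligand of EPHB4 known from arterial endothelium, had between 0 and 14 counts per library. A count of 6, or 3 read pairs, is 0.0966 to 0.145 CPM at these depths, and EFNB2 reached at most 0.251 CPM. No difference in EFNB2 was detectable at this depth. Of its exonic bases 26.2% are shared with a gene on the opposite strand, and strand was not used in counting.

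**Figure D2:**
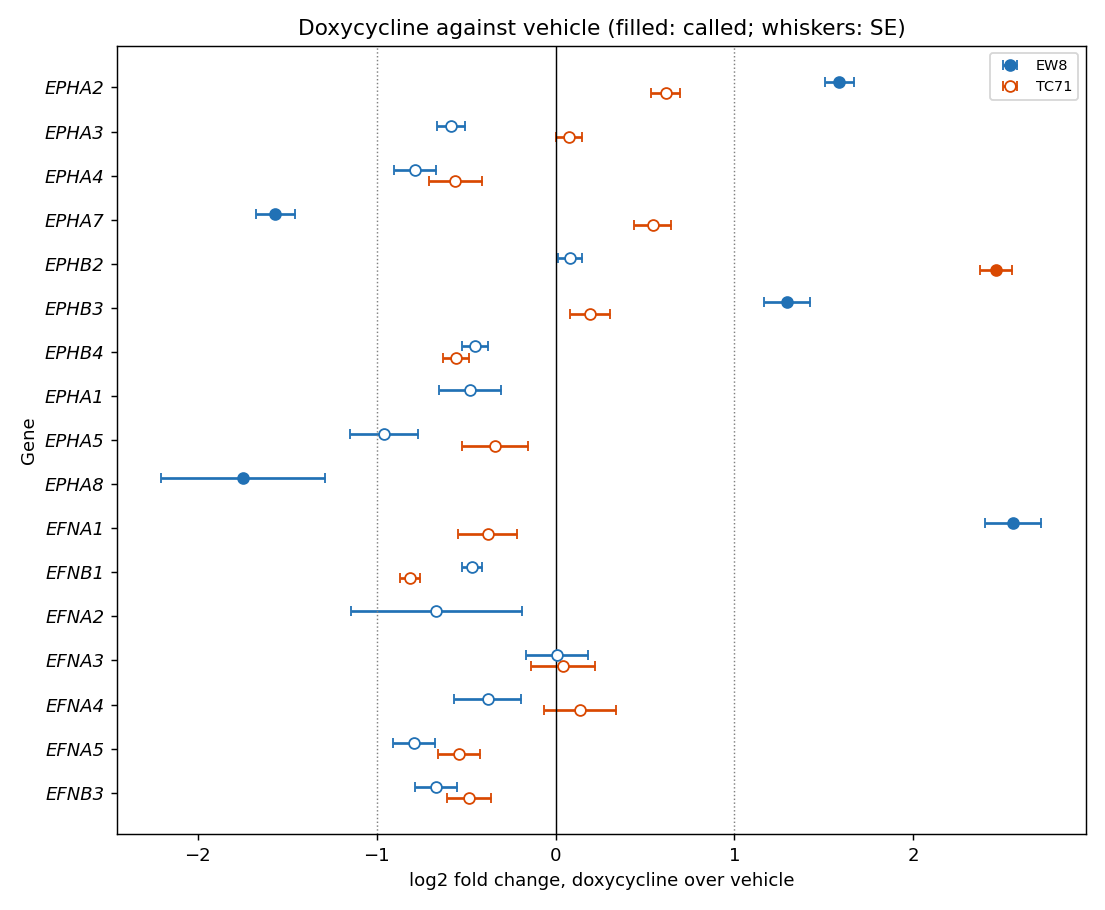
Log2 fold change of doxycycline over vehicle (horizontal axis) for tested genes of the family (vertical axis, members and then further family genes within receptors and within ephrins) in EW8 and TC71. Points are edgeR estimates, whiskers their SE, filled points are called genes, and dotted lines mark the fold limit of 1. EPHA7 lies at -1.57 in EW8 and 0.54 in TC71, and EPHB2 at 0.08 and 2.46. A point is drawn where the mean of either group of the line was at least 1 CPM, which leaves out EPHA10 and the TC71 points of EPHA1, EPHA8 and EFNA2.

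The difference between the responses was tested directly, as the response in TC71 minus that in EW8, and 4 of 9 members were called. EPHA7 and EPHB2 responded higher in TC71, as did 4.18% of all genes tested. EPHB3 and EFNA1 responded lower in TC71, as did 2.87% of all genes tested. The difference was 2.11 for EPHA7 (SE 0.15, adjusted p 1.14e-08), where the sign of the estimates was opposite in the lines. For EPHB2 it was 2.38 on the log2 scale (SE 0.11, adjusted p 6.02e-11), called in TC71 and not in EW8. For EFNA1 it was -2.94 on the log2 scale (SE 0.23, adjusted p 3.62e-08), the largest of the members in absolute value. For EPHB3 it was -1.10 (SE 0.17, adjusted p 0.000122), and without EW8 vehicle replicate 1 it was -0.98 and under the fold limit. EPHA2 differed by -0.97 (SE 0.11, adjusted p 5.42e-06), just under the fold limit, and passed that limit in 10 of 18 alternative settings. EPHA3 differed by 0.66 (adjusted p 0.000202) and EFNB1 by -0.35 (adjusted p 0.00395), both under the limit. At an adjusted p under 0.05 and any fold, 3 members responded higher in TC71 and 4 lower, and 19.3% of all genes passed in either direction. The estimates were 0.23 for EPHA4 (adjusted p 0.469) and -0.11 for EPHB4 (adjusted p 0.553), and neither passed the test. The induced genes themselves reached different levels in the lines, with mean FOS at 1078 ± 72 CPM in EW8 and 1580 ± 120 CPM in TC71 and mean JUN at 474 ± 45 and 756 ± 55 CPM (SD, n = 3). The part of that difference in the members' responses was not tested.

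Before induction the lines already differed in the levels of several receptors. Under vehicle, 2 of 9 members were called higher in TC71 than in EW8 and 4 lower, beside 11.6% and 18.9% of all genes tested. EPHA3 was 4.08-fold higher in TC71 (log2 2.03, SE 0.08, adjusted p 1.12e-13) and EPHB3 8.31-fold higher (log2 3.05, SE 0.13, adjusted p 4.26e-13). EPHB2 was at 0.0229 times its EW8 level (log2 -5.45, SE 0.09, adjusted p 2.53e-18) and EPHA4 at 0.0625 times (log2 -4.00, SE 0.14, adjusted p 2.48e-14). EFNB1 was at 0.395 times its EW8 level (log2 -1.34, SE 0.06, adjusted p 4.47e-13). For EPHB4 the log2 difference was -1.06 (SE 0.07, adjusted p 5.66e-10), close to the fold limit, and the call was lost in 4 of 18 alternatives, each of them without 1 library. Those were EW8 vehicle replicate 3, EW8 doxycycline replicates 1 and 2, and TC71 vehicle replicate 1, with -0.93 for the last. EPHA2 (-0.73), EPHA7 (-0.50) and EFNA1 (-0.14, adjusted p 0.467) were not called, so EFNA1 started from overlapping levels in the lines.

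Under doxycycline all 9 tested members differed between the lines past the threshold. TC71 was higher for 3 members, EPHA3 (log2 2.69), EPHB3 (1.95) and EPHA7 (1.61), and 12.6% of all genes were called in that direction. It was lower for 6 members, EPHA4 (-3.77), EFNA1 (-3.08), EPHB2 (-3.07), EPHA2 (-1.70), EFNB1 (-1.69) and EPHB4 (-1.16), and 18.4% of all genes were called in that direction. These comparisons use the same treated and vehicle libraries as the responses above and are not independent of them. EPHA2, EPHA7 and EFNA1, which were not called between the lines with vehicle, were thus called with doxycycline.

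**Figure D3:**
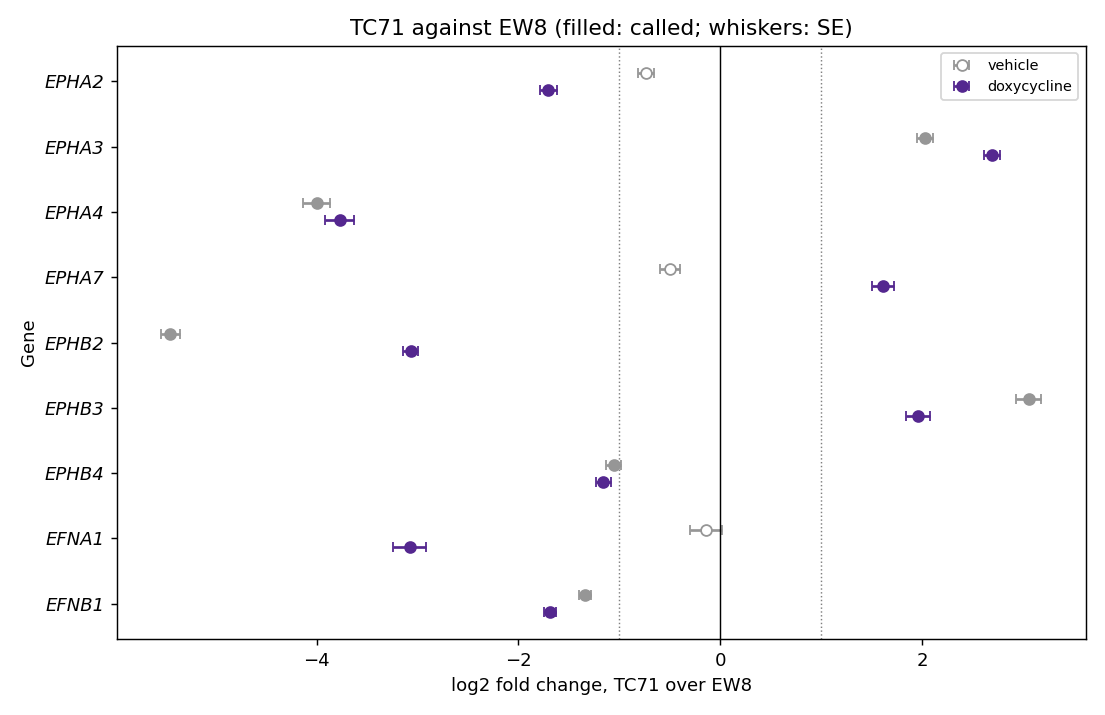
Log2 fold change of TC71 over EW8 (horizontal axis) for the 9 tested members (vertical axis) under vehicle and under doxycycline. Points are edgeR estimates, whiskers their SE, filled points are called genes, and dotted lines mark the fold limit of 1. EFNA1 moves from -0.14 to -3.08, while EPHB2 moves from -5.45 to -3.07.

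Levels of different genes were set beside each other only per length, as CPM per kilobase of exon. On that scale the 14 Eph receptors summed to 68.8 ± 3.3 CPM per kilobase in EW8 vehicle cells and 69.5 ± 2.1 with doxycycline (SD, n = 3). In TC71 they summed to 41.8 ± 1.1 and 42.7 ± 0.9 CPM per kilobase. The range of the vehicle and the treated libraries overlapped in both lines, so the summed receptor level did not differ beyond the spread of the replicates. Its composition did. In EW8 vehicle cells EPHB4 made up 44.7% ± 1.4 of the summed receptor level per length, EPHA4 19.5% ± 0.9, EPHA2 12.2% ± 0.3 and EPHB2 10.2% ± 0.03 (SD, n = 3). With doxycycline EPHA2 made up 36.2% ± 2.4, EPHB4 32.5% ± 1.6, EPHA4 11.2% ± 0.6 and EPHB2 10.7% ± 0.3. EPHA2 and EPHB4 lay closer to each other there than to any other receptor.

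In TC71 vehicle cells the leading receptor per length was again EPHB4, at 35.5% ± 1.0 (SD, n = 3), followed by EPHA3 at 25.0% ± 0.8, EPHB3 at 17.99% ± 1.6 and EPHA2 at 12.1% ± 0.9. With doxycycline EPHA3 made up 25.8% ± 1.7, EPHB4 23.6% ± 2.1, EPHB3 20.1% ± 0.7 and EPHA2 18.1% ± 0.8. The mean shares of EPHA3 and EPHB4 in these treated cells differed by about their SD. The other members reached at most 7.8% of the receptor level in TC71, the share of EPHA7 with doxycycline.

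The 8 ephrins together were lower with doxycycline in both lines. They summed to 152 ± 8.9 CPM per kilobase with vehicle and 122 ± 4.0 with doxycycline in EW8, and to 62.9 ± 4.1 and 39.6 ± 0.3 in TC71 (SD, n = 3), with no overlap of the libraries in either line. EFNB1 carried most of the ephrin level per length in each group, with 82.2% ± 0.4 and 74.4% ± 1.8 in EW8 and 78.5% ± 1.4 and 70.8% ± 0.8 in TC71. EFNA1 made up 1.48% ± 0.07 in EW8 vehicle cells and 10.9% ± 2.0 with doxycycline. In TC71 its share was 3.24% ± 0.41 and 3.96% ± 0.48. Summed by class, the A-class ephrins were at 18.04 ± 0.7 and 25.5 ± 3.1 CPM per kilobase in EW8, and at 9.19 ± 1.61 and 8.44 ± 0.68 in TC71, where the libraries overlapped. The A-class receptors were at 30.1 ± 0.4 and 37.3 ± 2.4 CPM per kilobase in EW8 and at 19.2 ± 0.3 and 23.1 ± 0.4 in TC71. The B-class receptors were at 38.7 ± 2.9 and 32.2 ± 1.2 CPM per kilobase in EW8 and at 22.5 ± 0.9 and 19.6 ± 1.3 in TC71. In each line the A-class receptor sum was thus higher and the B-class receptor sum lower in every treated library. These sums are descriptions without a test.

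**Figure D4:**
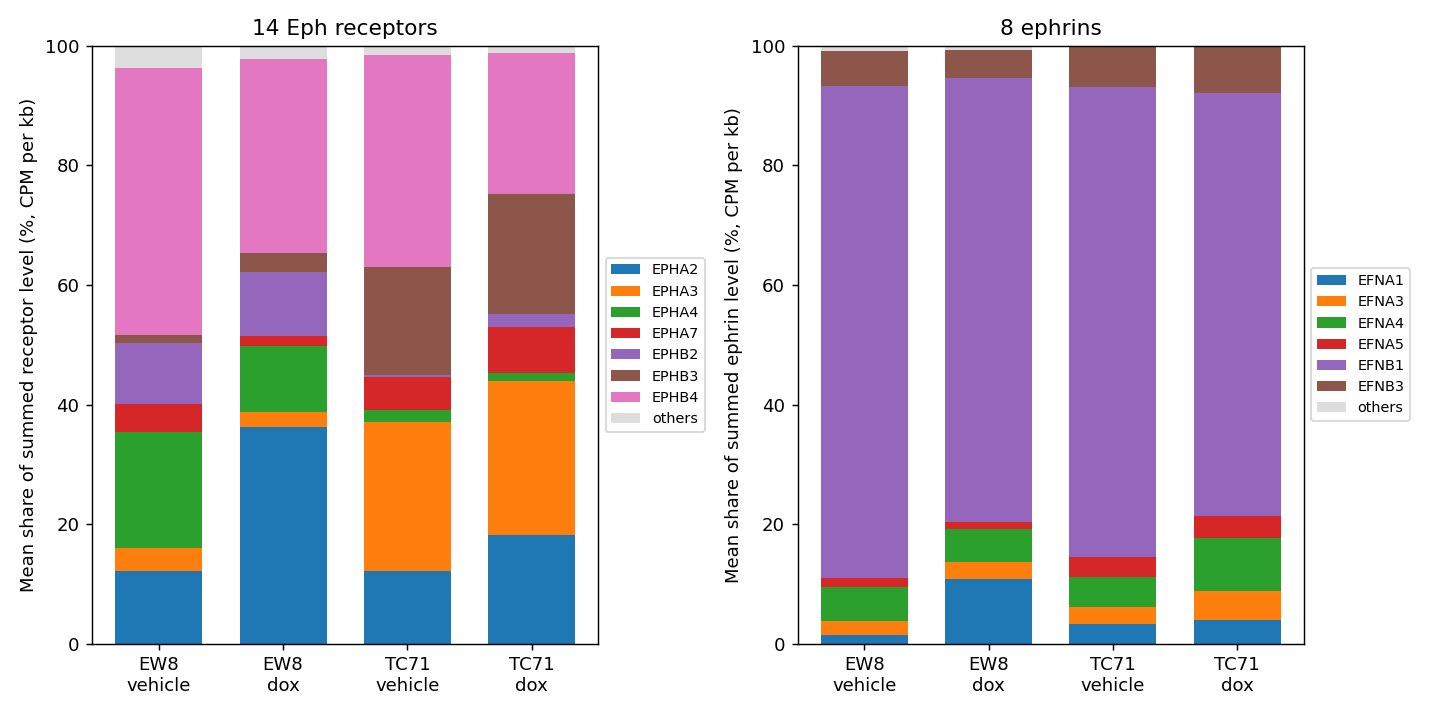
Mean share of each receptor (left panel, 14 Eph receptors) and of each ephrin (right panel, 8 ephrins) in the summed level per length, in percent (vertical axis), for the 4 groups of 3 libraries. EPHA2 takes 12.2% of the receptor level in EW8 vehicle cells and 36.2% with doxycycline, and EFNB1 takes 70.8% or more of the ephrin level in each group.

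Of the other 12 genes of the family, 9 passed the filter on low counts. The single called gene among them in a response was EPHA8, a receptor of the nervous system, which fell in EW8 from 2.35, 2.38 and 2.53 CPM with vehicle to 0.627, 0.870 and 0.662 CPM with doxycycline (log2 -1.75, SE 0.46, adjusted p 0.00434). In TC71 EPHA8 had at most 2 counts in any library. EFNA5 was lower with doxycycline at an adjusted p under 0.05 and under the fold limit in both lines (log2 -0.79 and -0.54), and so was EFNB3 (-0.67 and -0.48). In EW8 the same held for EPHA5 (-0.96) and EPHA1 (-0.48). In EW8 edgeR thus called 0 of these 9 genes higher and 1 lower, beside 11.4% and 3.38% of all genes tested. In TC71 it called 0 in either direction, where 12.3% of all genes tested were called higher and 3.67% lower. Of the 9, 2 had an unadjusted p under 0.05 in TC71, both lower, beside 23.4% of all genes lower by that rule. DESeq2 also called 0 there. EFNA2 was at 0 counts in all 6 TC71 libraries and at 30 to 72 counts in EW8. EPHA6, EPHB1 and EPHB6 did not pass the filter. Between the lines under vehicle, 5 of the 9 were called lower in TC71 and 0 higher, beside 18.9% and 11.6% of all genes. Under doxycycline 3 were called lower and 0 higher, beside 18.4% and 12.6%. Reads of EFNA3 and EFNA4 are uncertain, since 44.7% and 15% of their exonic bases are shared with the readthrough gene EFNA4-EFNA3. The ephrin sums and shares above include both genes and carry the same limit.

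Proteins that act with Eph receptors and ephrins were followed as a list of 40 genes, of which 39 were tested. In EW8 7 of these were called higher and 1 lower, and in TC71 6 were called higher and 1 lower. Over all genes tested, 11.4% and 3.38% were called in EW8 and 12.3% and 3.67% in TC71. Those called in both lines were all higher. ABL2, a cytoplasmic tyrosine kinase that remodels actin, went from 50.6 to 143 CPM in EW8 (log2 1.502, SE 0.06, adjusted p 1.04e-12) and from 66.4 to 163 CPM in TC71 (log2 1.30, SE 0.06, adjusted p 6.28e-12). NGEF, the exchange factor ephexin that acts downstream of EPHA4, went from 9.41 to 35.8 CPM in EW8 (log2 1.93, SE 0.10, adjusted p 1.15e-11) and from 15.4 to 37.4 CPM in TC71 (log2 1.28, SE 0.09, adjusted p 2.03e-09). The adaptor SHB had log2 fold changes of 2.22 and 1.76. RGS3, a regulator of G protein signalling that binds ephrin-B tails, had 1.11 and 1.73. ANKS1B, a low-level relative of the EPHA8 partner ANKS1A, had 2.26 and 2.53 from vehicle libraries of 2 to 7 counts in EW8 and 6 to 19 in TC71.

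The other calls of the signalling list were made in 1 line each, and SDCBP, VAV3 and NCK2 are named after their values were seen. In EW8 these were SDCBP (syntenin, a PDZ protein that binds ephrin-B, log2 1.09), GRIP1 (another PDZ protein, with 12 to 20 counts under doxycycline and vehicle libraries at the floor of 0 to 6 counts, so that no fold is given) and VAV3 (log2 -1.02). In TC71 they were the adaptor NCK2 (log2 1.07) and CHN2, a Rac-inactivating protein (log2 -1.79). CHN2 was at a low level there, with 70 to 136 counts under vehicle and 14 to 40 under doxycycline. No response of the 39 was called as different between the lines by edgeR or DESeq2, with 13 higher and 7 lower in TC71 at an unadjusted p under 0.05, a level that 30.4% of all genes passed in either direction. At an adjusted p under 0.05 and any fold, 9 of them responded higher and 5 lower in TC71, beside 19.3% of all genes in either direction. The median log2 fold change of the list was 0.06 in EW8 and 0.44 in TC71, against -0.03 and 0 over all genes tested.

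As a description of the members' patterns, the protein-coding gene outside the family with the highest Pearson correlation was found for each over the 12 libraries, among 14877 genes on the log2 CPM scale. The genes were PDE4B for EPHA2 (r 0.9933), NRAS for EPHA3 (r 0.9982), ZNF492 for EPHA4 (r 0.9973) and PLAG1 for EPHA7 (r 0.9713). For the B-class receptors they were COL4A2 for EPHB2 (r 0.9955), ABCA3 for EPHB3 (r 0.9957) and PRRT4 for EPHB4 (r 0.9967). For the ephrins they were RCSD1 for EFNA1 (r 0.9817) and DLGAP1 for EFNB1 (r 0.9984). The 12 points fall into the 4 groups and share their libraries, so a high r says mainly that the group levels have the same order and spacing.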

How the data were processed

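RNA-seq was done on 12 libraries of polyadenylated RNA, 4 groups of 3. The authors checked reads with FastQC, mapped them to hg38 by STAR and counted them over GENCODE release 29 exons by featureCounts 2.0.1, and the deposited values are raw counts per gene. Per the file headers, no option for pairs, strand, multi-mapped or overlapping reads was set, so each mate was counted singly and strand was not used. The exon length given in the same table, in base pairs, was used for levels per kilobase. The study's own test was DESeq2, run here as an alternative (1.42.0).

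Here all libraries entered 1 edgeR 4.0.16 quasi-likelihood fit (R 4.3.3) with TMM scaling and the filterByExpr filter, which left 21013 genes. P-values were adjusted over these genes by Benjamini-Hochberg. Errors are SD over libraries or SE of a log2 fold change. Total counts per library were 42860665 to 60853649, and a count of 6 (3 read pairs) was taken as the floor, for counting error only. Promoter windows came from RefSeq. The members and lists were chosen with earlier results of these data known. The text names all 10 members and any other family gene called in a response to doxycycline. Other family genes called between the lines are given by count. Signalling genes are named when called in both lines or among the 4 largest changes of a line, with 3 additions stated. Alternatives were other scalings, filters, fold limits, DESeq2, a replicate block, each line alone and leaving out each library.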

Additional observations from a re-analysis of the deposited data

Results flagged for a closer look

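The doxycycline response of 4 members differed between the lines by the interaction test (edgeR quasi-likelihood, 3 libraries a group). On the log2 scale the response in TC71 minus that in EW8 was 2.11 for EPHA7, 2.38 for EPHB2, -1.10 for EPHB3 and -2.94 for EFNA1. Across the alternatives the difference stayed between 1.92 and 2.16 for EPHA7, 2.24 and 2.42 for EPHB2, -1.28 and -0.98 for EPHB3, and -3.15 and -2.80 for EFNA1. FOS and JUN reached higher levels in TC71 than in EW8 with doxycycline (log2 0.55 and 0.67), and the part of this in the 4 differences was not tested.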

How the results depend on the processing

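Of 184 recomputed counts of called members, 179 stayed within 1.5 times the reported count. The 5 that moved came from the fold limit. With no fold limit, 5 members were lower in EW8, 3 higher and 3 lower in TC71, and 7 differed in response. Over all genes, 43.9%, 45.6% and 19.3% passed at any fold in these 3 comparisons. With a limit of 1.5, 2 members were lower in TC71 under vehicle. Of 45 member comparisons, 42 kept their call in each alternative run, with no change of sign among called values. The exceptions were EPHA2 and EPHB3 in the difference of responses and EPHB4 between the lines under vehicle. Leaving out single libraries gave 3 to 5 members with a differing response, and 3 or 4 lower in TC71 under vehicle. Without TC71 vehicle replicate 1 these counts were 5 and 3. Same-numbered vehicle and doxycycline libraries did not deviate together (r -0.0282 to 0.00977). Samples handled in pairs could also give such values, so they do not settle whether the numbers pair the samples. With the replicate block the counts were 3 higher and 1 lower in EW8, 1 and 0 in TC71, 4 differing responses, 2 higher and 4 lower in TC71 under vehicle and 3 and 6 under doxycycline, as without it. Other scalings shifted the median log2 fold change by at most 0.095 downward. Depth limits EFNB2, which had at most 14 counts.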
